A study of Homo sapiens with 24 samples.

Results

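The immediate-early genes examined here are EGR1, EGR2, EGR3, IER2, IER3, IER5, PHLDA1, SRF, KLF4 and KLF10, 10 of the 23368 genes counted. They were chosen by name from the class of genes that cells transcribe within minutes of growth factor stimulation. The rule names them and uses no measured value, but they were chosen with earlier results of these data known. All 10 were found in the count table and all 10 were tested. Counts came from messenger RNA sequencing of AGS, a gastric adenocarcinoma cell line of human origin labelled as wild type. The cells were grown in Ham's F12 medium with fetal calf serum, and treatment lasted 24 h. The 6 groups of 4 libraries were a control labelled as receiving no treatment, PI103 at 0.7 µM, PD0325901 at 0.035 µM, (5Z)-7-oxozeaenol (called oxozeaenol here) at 0.5 µM, PI103 plus oxozeaenol, and PI103 plus PD0325901. Combinations used 50% of each single-agent concentration, which is 0.35 µM PI103 with 0.25 µM oxozeaenol or with 0.0175 µM PD0325901. PI103 blocks the kinases PI3K and mTOR. PD0325901 blocks MEK, the activator of ERK, and oxozeaenol blocks TAK1, a kinase upstream of NF-κB, JNK and p38 signalling. No vehicle for the control is named in the labels, all groups came from the same cell line, and the labels call the 4 libraries of a group biological replicates and number them as batches 1 to 4.

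Immediate-early genes need no new protein for their induction, since the factors that switch them on are already in the cell. Active ERK phosphorylates ternary complex factors of the ETS family, which sit beside serum response factor (SRF) on CArG boxes of these promoters, and actin dynamics act on SRF through the MRTF coactivators. Their messages are short-lived, so their level follows current signalling, and many of their products are transcription factors that pass the signal on.

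The libraries held 38057638 to 84226380 counts in genes. The 6 epithelial markers EPCAM, KRT8, KRT18, KRT19, KRT7 and CLDN4 together summed to 4607 to 7514 counts-per-million (CPM, relative to the TMM-scaled library size) in each library. This sum does not show the level of each marker. Markers of other cell types summed to 14.8 to 18.2 CPM in control, 33.6 to 35.2 in PI103, 19.8 to 25.8 in PD0325901, 9.52 to 11.4 in oxozeaenol, 10.2 to 12.4 in PI103 plus oxozeaenol and 23.9 to 27.3 in PI103 plus PD0325901. Nearly all of these sums was COL1A1, a collagen gene, while the T cell marker CD3E and the fibroblast marker DCN had at most 1 count in any library. Of the 8 markers of other cell types, 4 were tested against control. All 4 rose with PD0325901 and with PI103 plus PD0325901 at an adjusted p under 0.05 in the edgeR test. With PI103 1 rose, with oxozeaenol 1 rose and 1 fell, and with PI103 plus oxozeaenol 2 rose and 1 fell. The part of these marker differences in the results was not tested.

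The promoters show the letters through which this class is usually described. RefSeq windows (GRCh38.p14, 250 bases before to 50 after the annotated start) were matched for 7 of the 10 genes, in 10 windows. The 200 bases before the start of 4 genes are shown. EGR1 holds CArG boxes without the ETS core CCGGAA, and SRF holds both. IER5, which changed least against control, and PHLDA1, which fell in every treatment, hold that ETS core without a CArG box. Capitals mark matches to the CArG box, to the ETS core CCGGAA and to the EGR site GCGNGGGCG, each on either strand. Shorter ETS letters were not searched. The letters ttcc, which read GGAA on the other strand, stand between the CArG boxes of EGR1. The regions are chr5:138465279-138465478 (plus strand) for EGR1, chr6:43171069-43171268 (plus strand) for SRF, chr1:181088500-181088699 (plus strand) for IER5 and chr12:76031777-76031976 (minus strand) for PHLDA1.
EGR1: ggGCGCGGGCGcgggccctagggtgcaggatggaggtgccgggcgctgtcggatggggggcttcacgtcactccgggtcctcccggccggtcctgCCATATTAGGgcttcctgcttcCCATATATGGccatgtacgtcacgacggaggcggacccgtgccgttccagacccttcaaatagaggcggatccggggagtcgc
SRF: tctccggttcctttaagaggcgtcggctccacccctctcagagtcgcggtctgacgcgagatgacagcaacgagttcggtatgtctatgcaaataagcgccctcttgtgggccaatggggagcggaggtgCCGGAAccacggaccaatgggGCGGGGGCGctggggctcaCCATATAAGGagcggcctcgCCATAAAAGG
IER5: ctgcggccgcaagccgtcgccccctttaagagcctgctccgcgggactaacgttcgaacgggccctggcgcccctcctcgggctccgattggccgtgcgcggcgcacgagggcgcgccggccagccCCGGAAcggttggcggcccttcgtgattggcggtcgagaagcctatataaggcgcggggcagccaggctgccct
PHLDA1: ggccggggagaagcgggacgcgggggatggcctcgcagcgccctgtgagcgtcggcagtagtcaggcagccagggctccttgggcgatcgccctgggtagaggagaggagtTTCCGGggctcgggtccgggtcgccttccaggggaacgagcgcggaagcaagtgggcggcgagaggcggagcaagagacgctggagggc

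EGR1 held 2 CArG boxes, at -105 to -96 and -83 to -74 from the start, and an EGR site at -198 to -190. SRF held 2 CArG boxes, at -30 to -21 and -10 to -1, with an ETS core at -70 to -65 and an EGR site at -49 to -41. EGR2 had a CArG box at -71 to -62 in 1 of its 3 windows, so 3 of the matched genes held a CArG box, against 1.29% of 35116 promoter windows. The ETS core was in 4 (IER2, IER5, PHLDA1 and SRF), against 17.2% of windows, and the EGR site in 4 (EGR1, EGR2, KLF4 and SRF), against 9.43%. A gene counted if any of its windows matched, while the shares are per window. A gene such as EGR2, with 3 windows, thus had more chances of a match. No matched gene held the cyclic AMP response element TGACGTCA, which 1.85% of windows held, and no match overlapped another motif. A match describes the letters and not a bound site. The RefSeq starts of PHLDA1 and KLF4, and those of all EGR2 windows, lie inside the spans that GENCODE gives these genes. The start of the SRF window that held no match does so too. The genes were also short, with a median span of 5637.5 bp and 2 exons, against 32236 bp and 8 exons over 11715 protein-coding genes tested.

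Against control, nearly the whole set was lower after each treatment, with IER5 as the exception. Among the 8 genes with at least 10 counts in every library, EGR1 had the lowest log2 fold change and IER3 the next lowest in each treatment. A gene counts as changed at an adjusted p under 0.05 in the quasi-likelihood F test of edgeR, adjusted by Benjamini-Hochberg over 13947 genes, and log2 fold changes are treatment minus control. PI103 lowered 9 of the 10 genes and raised 1, IER5, while 25.2% of all genes tested were lower. PD0325901 lowered 10 of 10 (29.9% of all genes), oxozeaenol 9 of 10 (26.1%), PI103 plus oxozeaenol 9 of 10 (27.9%) and PI103 plus PD0325901 10 of 10 (32.6%). With a log2 fall of at least 1 also required, 8 of 10 remained in each treatment, namely all but IER5 and SRF, against 4.50% of genes in PI103, 5.72% in PD0325901, 4.36% in oxozeaenol, 5.02% in PI103 plus oxozeaenol and 7.39% in PI103 plus PD0325901. EGR3 passed the filter on low counts only through its control libraries, so its falls are tied to its being tested. EGR2 had at most 29 counts in a library outside control. Only control had every count of EGR2 and EGR3 at 10 or above, and the other 8 had counts of at least 10 in every library. The median log2 fold change of the 10 genes was -1.91, -2.76, -2.41, -2.41 and -3.05 in these treatments, in the order above, and the median of all genes lay between -0.02 and 0.02. All treatments share the same 4 control libraries, and in bulk RNA fewer cells that express a gene and less of its RNA per cell cannot be told apart.

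**Figure D1:**
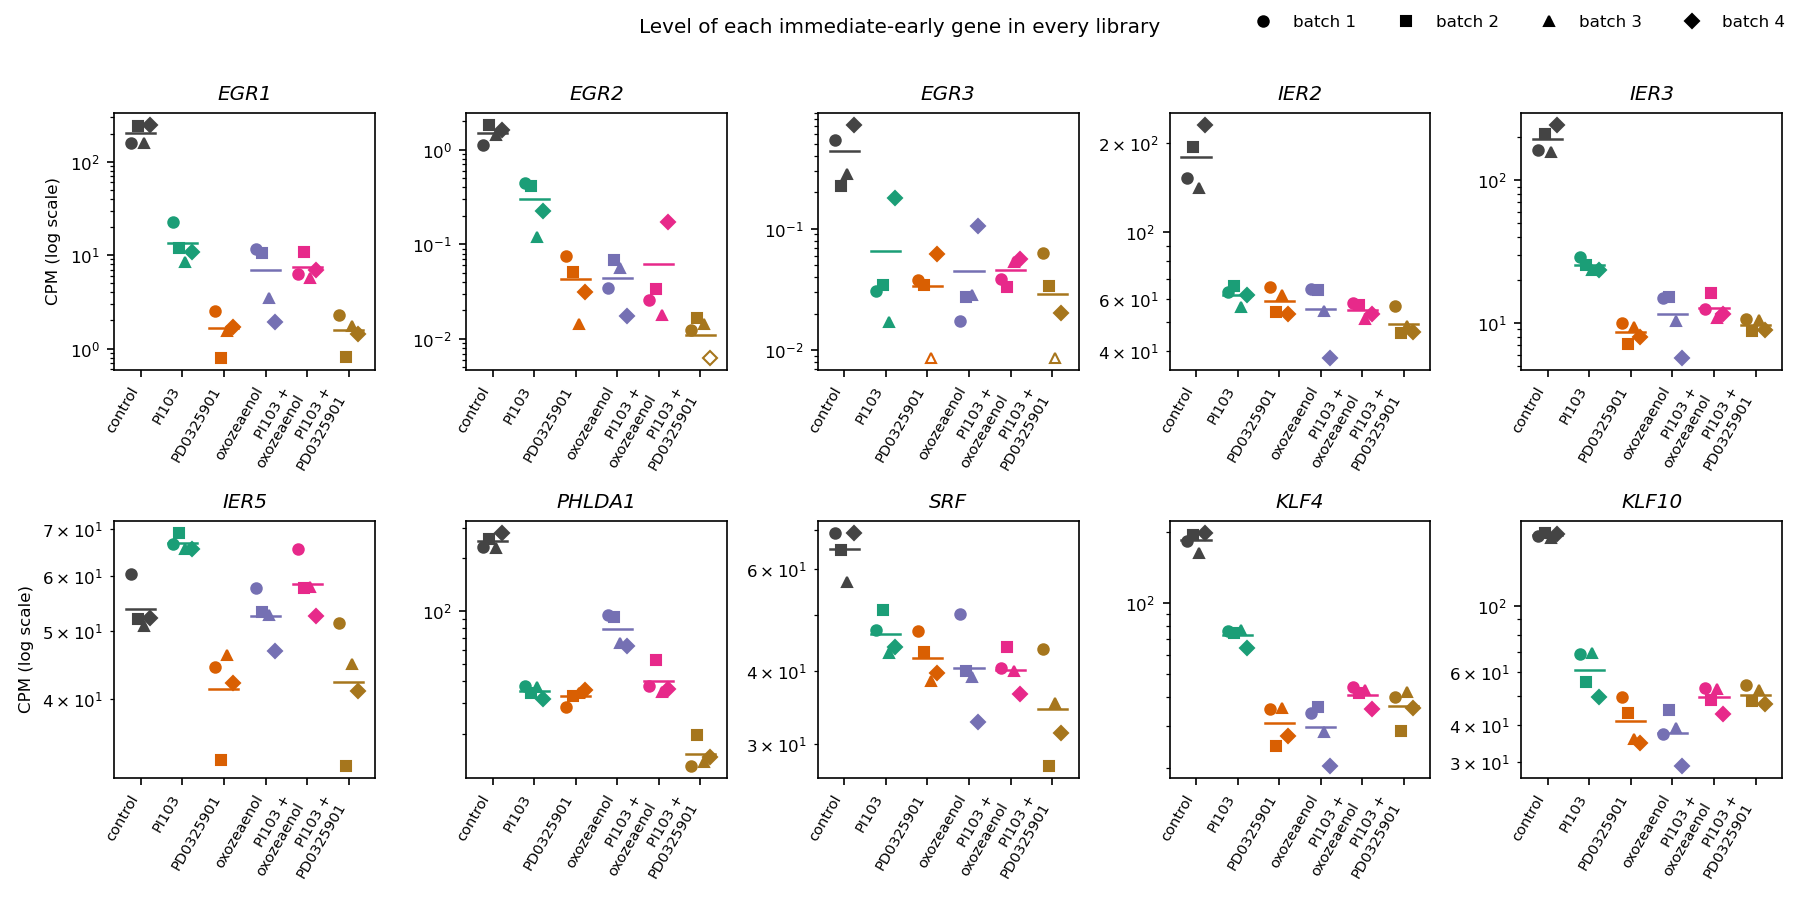
Level of each gene in every library, in CPM on a log scale with its own range per gene. Points are libraries, shapes are batches 1 to 4, lines are group means of 4 libraries, and open symbols at the lower edge are libraries with 0 counts; the control libraries lie above all others for every gene but IER5.

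**Figure D2:**
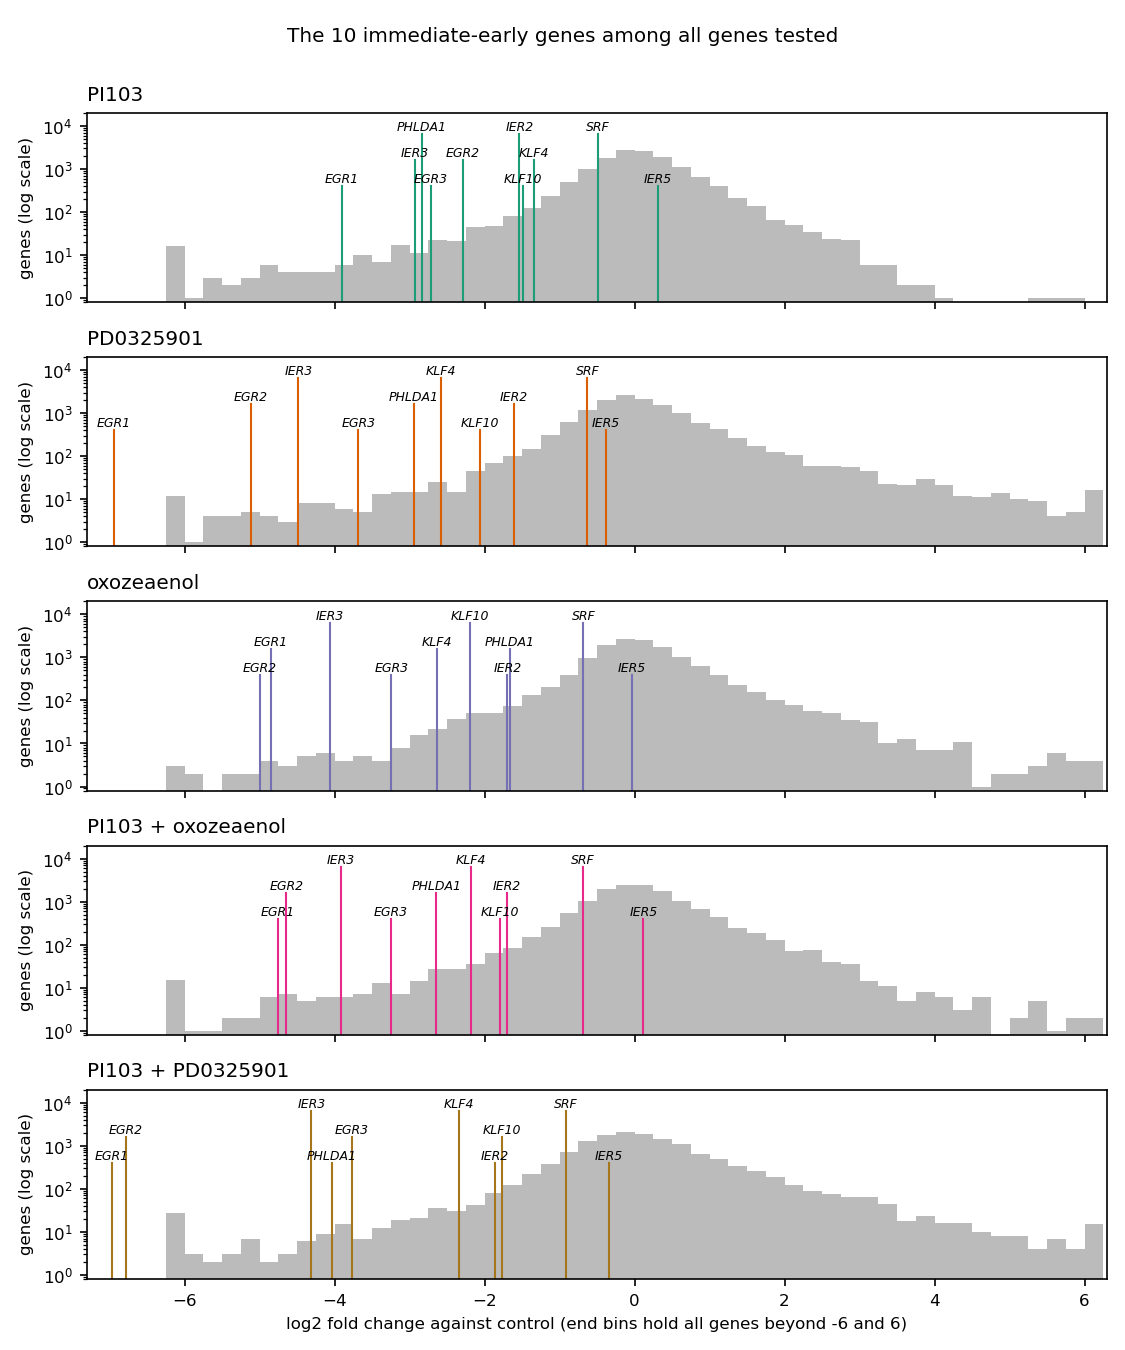
Distribution of log2 fold change against control over the 13947 genes tested (grey bars, number of genes on a log scale) in each treatment, with the 10 immediate-early genes as labelled lines. EGR1 in PD0325901, at -6.94, lies at the far left, and IER5 lies within the bulk of the genes in every panel.

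EGR1, a zinc finger transcription factor and a standard readout of ERK activity, lies on chromosome 5 (138465490 to 138469315, plus strand, 2 exons in GENCODE 29 on GRCh38). Its level was 157, 240, 158 and 249 CPM in control libraries 1 to 4 and 2.55, 0.790, 1.53 and 1.71 CPM with PD0325901. With PI103 it was 22.7, 11.95, 8.37 and 10.7 CPM, and with oxozeaenol 11.6, 10.4, 3.49 and 1.92 CPM. Every treated library was below every control library, and within oxozeaenol batches 1 and 2 stood above batches 3 and 4. With PI103 plus oxozeaenol it was 6.21, 10.9, 5.68 and 6.97 CPM, and with PI103 plus PD0325901 2.29, 0.806, 1.75 and 1.43 CPM. The libraries of PI103 plus PD0325901 were thus in the same range as those of PD0325901 alone.

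The fall of EGR1 was 3.90 on the log2 scale with PI103 (SE 0.46, adjusted p = 7.59e-07), which left 6.68% of the control mean. PD0325901 left 0.818% of the control mean (log2 fold change -6.94, SE 0.55), and only 0.0215% of the genes tested had a lower log2 fold change. Oxozeaenol left 3.42% (log2 fold change -4.85, SE 0.49), PI103 plus oxozeaenol 3.70% (-4.76, SE 0.49) and PI103 plus PD0325901 0.781% (-6.97, SE 0.55). In the order of levels, control was above PI103 without overlap and oxozeaenol passed as above PD0325901 with ranges that met, while the steps from PI103 to PI103 plus oxozeaenol to oxozeaenol, and from PD0325901 to PI103 plus PD0325901, did not pass. EGR1 had the largest spread among libraries of a group of the 10 genes, a biological coefficient of variation of 45.0%, against 11.4% for IER5.

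EGR2 and EGR3, the relatives of EGR1 with a like zinc finger domain, were near the detection limit outside control. EGR2 had 69, 99, 116 and 122 counts in control, or 1.12 to 1.84 CPM, and 29, 24, 7 and 14 counts with PI103. With PD0325901 it had 4, 3, 1 and 2 counts, with oxozeaenol 2, 5, 2 and 1, and with PI103 plus oxozeaenol 2, 2, 1 and 9. Control stood above all of these, and the mean with PI103 was intermediate. PI103 replicate 3 (7 counts, 0.120 CPM) lay below PI103 plus oxozeaenol replicate 4 (9 counts, 0.170 CPM). The summed counts with PI103 corresponded to 20.5% of the control level (95% exact interval 15.8% to 26.3%), covering counting error only. PI103 plus PD0325901 had 3 EGR2 counts in all, in libraries 1 to 3, which is 0.783% of control (95% exact interval 0.161% to 2.30%, counting error only).

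EGR3 had 33, 12, 23 and 55 counts in control, or 0.224 to 0.722 CPM. No library outside control had more than 11 counts of EGR3, and 2 libraries, replicate 3 of PD0325901 and of PI103 plus PD0325901, had 0. Its summed counts corresponded to 14.6% of control with PI103 and 6.89% with PI103 plus PD0325901, with intervals that overlap (8.12% to 24.7% and 2.91% to 14.0%). Differences between treatments in EGR3 were not detectable at this depth.

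IER3, a short-lived protein linked to survival under stress, lies on chromosome 6 (30743199 to 30744554, minus strand, 1 exon). Its level was 163, 209, 156 and 244 CPM in control, 29.1, 25.3, 23.3 and 23.3 CPM with PI103 and 10.0, 7.11, 9.38 and 7.99 CPM with PD0325901. The 3 groups did not overlap, and PI103 lay between the others. Oxozeaenol gave 14.9, 15.3, 10.3 and 5.66 CPM, PI103 plus oxozeaenol 12.5, 16.2, 10.8 and 11.5 CPM, and PI103 plus PD0325901 10.7, 8.77, 10.4 and 8.97 CPM. These 3 groups were all below PI103, and the lowest library, replicate 4 of oxozeaenol, was also the lowest of its group for 9 of the 10 genes, as it was for 33% of all genes. The log2 fold change of IER3 was -2.93 with PI103 (SE 0.22, adjusted p = 1.24e-10) and -4.48 with PD0325901 (SE 0.23, adjusted p = 2.68e-13), which left 13.1% and 4.47% of control. Among neighbours in the order of levels, control was above PI103 and PI103 above PI103 plus oxozeaenol, and none of the lower steps passed. Beyond neighbours, IER3 was higher with PI103 plus oxozeaenol than with PD0325901, without overlap (log2 fold change 0.56, SE 0.21, adjusted p = 0.0395).

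IER2, a nuclear protein named with IER3 for its early response, fell to a similar level in all treatments. Its level was 141 to 230 CPM in control and 37.9 to 66.2 CPM over all 20 treated libraries, with no overlap. The treated means were 34.5% (PI103), 32.8% (PD0325901), 30.9% (oxozeaenol), 30.7% (PI103 plus oxozeaenol) and 27.6% (PI103 plus PD0325901) of the control mean. The log2 fold changes ran from -1.54 (SE 0.14, PI103) to -1.86 (SE 0.14, PI103 plus PD0325901), and no neighbouring treatments differed. In the annotation 30.8% of the exon length of IER2 and 26.5% of that of IER3 lie opposite an antisense transcript that has no row of its own in the table. Whether counting used the strand is not stated in the sources used here, so such reads cannot be told apart.

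IER5, whose product binds the phosphatase PP2A and the heat shock factor HSF1, did not follow the rest. It lies on chromosome 1 (181088712 to 181092899, plus strand, 1 exon). Its level was 60.4, 51.9, 50.9 and 52.2 CPM in control, 66.6, 69.1, 65.6 and 65.6 CPM with PI103 and 44.4, 32.7, 46.2 and 42.2 CPM with PD0325901. All PI103 libraries were above and all PD0325901 libraries below every control library. The increase with PI103 was small, at a log2 fold change of 0.31 (SE 0.11, adjusted p = 0.024), and it did not pass without replicate 2, 3 or 4 of control (adjusted p = 0.0569, 0.0636 and 0.0548) or replicate 2 of PI103 (0.0544). With PD0325901 it fell by 0.38 (SE 0.11, adjusted p = 0.00563).

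Oxozeaenol gave IER5 levels of 57.6, 53.3, 52.7 and 46.8 CPM, PI103 plus oxozeaenol 65.5, 57.7, 57.8 and 52.6 CPM, and PI103 plus PD0325901 51.4, 32.0, 44.9 and 41.0 CPM, and all 3 groups overlapped control. The log2 fold change was -0.03 with oxozeaenol (95% interval -0.27 to 0.20) and 0.12 with PI103 plus oxozeaenol (-0.11 to 0.35), and neither passed. With PI103 plus PD0325901 IER5 fell by 0.35 (SE 0.11, adjusted p = 0.00935), a call that did not pass without replicate 2 of that group (adjusted p = 0.0562).

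PHLDA1, a pleckstrin homology-like domain protein and a usual member of MAPK output signatures, separated the treatments in another order. It lies on chromosome 12 (76025447 to 76033932, minus strand, 2 exons). Its level was 232, 258, 231 and 281 CPM in control, 37.6, 34.0, 36.9 and 31.7 CPM with PI103 and 28.3, 33.0, 33.9 and 35.3 CPM with PD0325901. The 2 single agents overlapped each other, and neither overlapped control. Oxozeaenol gave 94.8, 92.2, 65.8 and 63.0 CPM, PI103 plus oxozeaenol 37.4, 52.7, 34.3 and 35.9 CPM, and PI103 plus PD0325901 13.0, 19.6, 13.8 and 14.8 CPM. Every library of PI103 plus PD0325901 was below every other library of the series, and the oxozeaenol libraries were above those of all other treatments.

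The fall of PHLDA1 left 14.0% of the control mean after PI103 (log2 fold change -2.84, SE 0.15), 13.0% after PD0325901 (-2.94, SE 0.15) and 31.5% after oxozeaenol (-1.66, SE 0.15). PI103 plus oxozeaenol left 16.0% (-2.64, SE 0.15), and PI103 plus PD0325901 left 6.11% (-4.03, SE 0.16). In the order of levels, control was above oxozeaenol, oxozeaenol above PI103 plus oxozeaenol, and PD0325901 above PI103 plus PD0325901. The steps from PI103 plus oxozeaenol to PI103 to PD0325901 did not pass.

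SRF itself, the factor that binds the CArG box, changed less than every other gene of the set but IER5. Its level was 69.1, 64.7, 57.0 and 69.3 CPM in control and 27.4 to 50.9 CPM over the treated libraries, with no overlap. The mean was 71.2% of control with PI103 (log2 fold change -0.49, SE 0.12, adjusted p = 0.00137) and 52.9% with PI103 plus PD0325901 (-0.92, SE 0.12, adjusted p = 3.24e-07), and 61.9% to 64.7% in the other treatments. Between 8.78% and 16.0% of all genes tested had a lower log2 fold change than SRF, against at most 0.602% for IER3 and at most 0.330% for EGR1. No neighbouring treatments differed in the order of SRF levels.

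KLF4 and KLF10 are Krüppel-like zinc finger factors, and KLF10 is also known as a TGFβ-inducible early gene. KLF4 was at 184, 195, 163 and 199 CPM in control, 76.3, 74.2, 77.1 and 64.6 CPM with PI103, 35.5, 24.6, 35.9 and 27.2 CPM with PD0325901 and 34.0, 36.2, 28.4 and 20.3 CPM with oxozeaenol. The PI103 libraries lay between control and the other groups without overlap. The log2 fold change of KLF4 was -1.34 with PI103 (SE 0.15, adjusted p = 4.35e-08), -2.59 with PD0325901 (SE 0.15, adjusted p = 8.27e-13) and -2.64 with oxozeaenol (SE 0.15, adjusted p = 1.34e-12). The combinations stood at 22.0% (PI103 plus oxozeaenol) and 19.7% (PI103 plus PD0325901) of control. KLF4 in PI103 was above PI103 plus oxozeaenol, and the 4 lower groups did not differ from their neighbours. Beyond neighbours, KLF4 was higher with PI103 plus oxozeaenol than with PD0325901, with overlapping ranges (log2 fold change 0.40, SE 0.15, adjusted p = 0.0325).

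KLF10 was tightest in control, at 168 to 175 CPM, and ranged from 49.7 to 69.7 CPM with PI103, 34.8 to 49.5 CPM with PD0325901 and 29.1 to 44.8 CPM with oxozeaenol. No treated library reached control. The means were 35.5%, 23.9% and 21.9% of control, and 28.8% and 29.4% with PI103 plus oxozeaenol and PI103 plus PD0325901. Only the step from control to PI103 passed among neighbours, while with batch as a term 3 steps passed. Beyond neighbours, KLF10 was higher with PI103 plus PD0325901 than with oxozeaenol, without overlap (log2 fold change 0.42, SE 0.12, adjusted p = 0.00677).

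**Figure D3:**
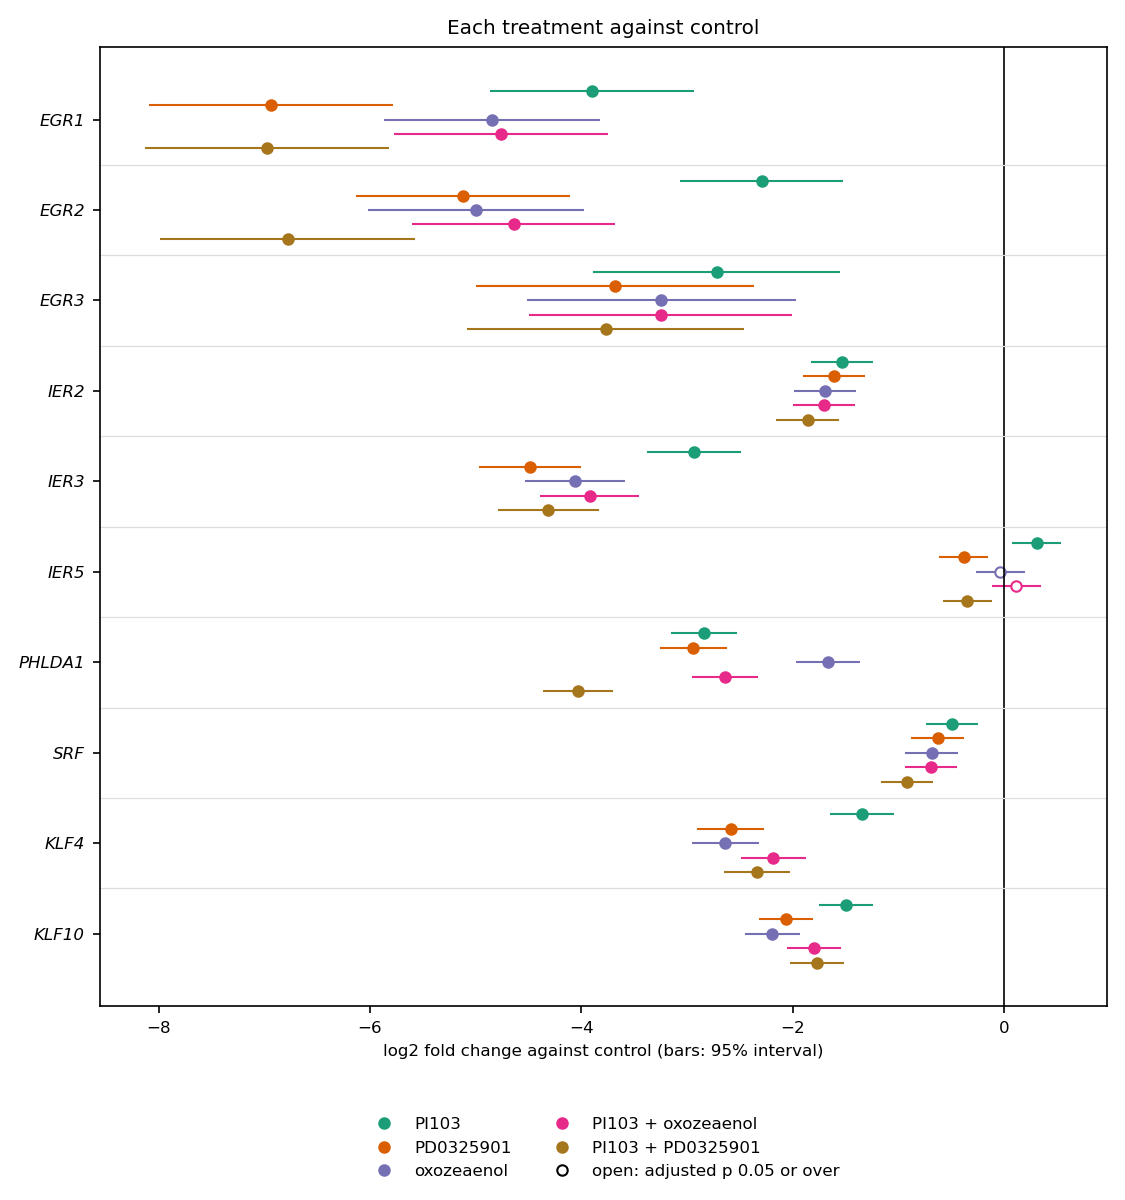
Log2 fold change of each gene against control for the 5 treatments, with bars for the 95% interval over 4 libraries a group and open symbols for an adjusted p of 0.05 or over. Apart from IER5, at -0.38 to 0.31, falls run from SRF, at -0.49 to -0.92, to EGR1, at -3.90 to -6.97. Only IER5 has points on the right of 0, and EGR2 and EGR3 rest on few counts outside control.

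The single agents, each at its full concentration, were then compared with each other. PD0325901 was lower than PI103 in 6 genes (EGR1, EGR2, IER3, IER5, KLF4 and KLF10) and higher in 0, while 44.5% of all genes differed. EGR1 had a log2 fold change of -3.04 (SE 0.50, adjusted p = 4.95e-05), IER3 of -1.55 (SE 0.21) and KLF4 of -1.24 (SE 0.15), each lower in 4 of 4 batches. PHLDA1 and SRF did not pass, with log2 differences of -0.10 (95% interval -0.40 to 0.19) and -0.14 (-0.39 to 0.11). Oxozeaenol was lower than PI103 in 5 genes (EGR2, IER3, IER5, KLF4 and KLF10) and higher in 1, PHLDA1, while 43.1% of all genes differed. PHLDA1 was 2.26-fold higher with oxozeaenol than with PI103 (log2 fold change 1.17, SE 0.14, adjusted p = 5.08e-07), in 4 of 4 batches. EGR1 in oxozeaenol against PI103 did not pass (log2 fold change -0.94, SE 0.44, adjusted p = 0.0887), but without replicate 1 of oxozeaenol EGR1 (-1.31, adjusted p = 0.0279) and SRF (-0.31, adjusted p = 0.0376) passed as lower. Over all fits without 1 library, 5 to 8 genes differed between these 2 agents. The call of IER5 (adjusted p = 0.0164) was not kept without replicate 4 of oxozeaenol (0.0587).

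PD0325901 was lower than oxozeaenol in 3 genes (EGR1, IER5 and PHLDA1) and higher in 0, while 28.5% of all genes differed. PHLDA1 was 2.42-fold lower with PD0325901 (log2 fold change -1.28, SE 0.15, adjusted p = 7.83e-07). EGR1 was 4.27-fold lower (-2.09, SE 0.50, adjusted p = 0.00429), in 4 of 4 batches, although the ranges met because oxozeaenol replicate 4, at 1.92 CPM, was within that of PD0325901. IER5 was 1.27-fold lower (adjusted p = 0.0241), which did not pass without replicate 1 of oxozeaenol (0.0652) or replicate 2 of PD0325901 (0.120), and IER3 passed as lower only without replicate 4 of oxozeaenol (-0.65, adjusted p = 0.00597). KLF4, KLF10, IER2 and SRF did not pass between these 2 agents, and their 95% intervals lay within -0.25 to 0.38. The agents differ in target and concentration, which this comparison cannot tell apart.

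**Figure D4:**
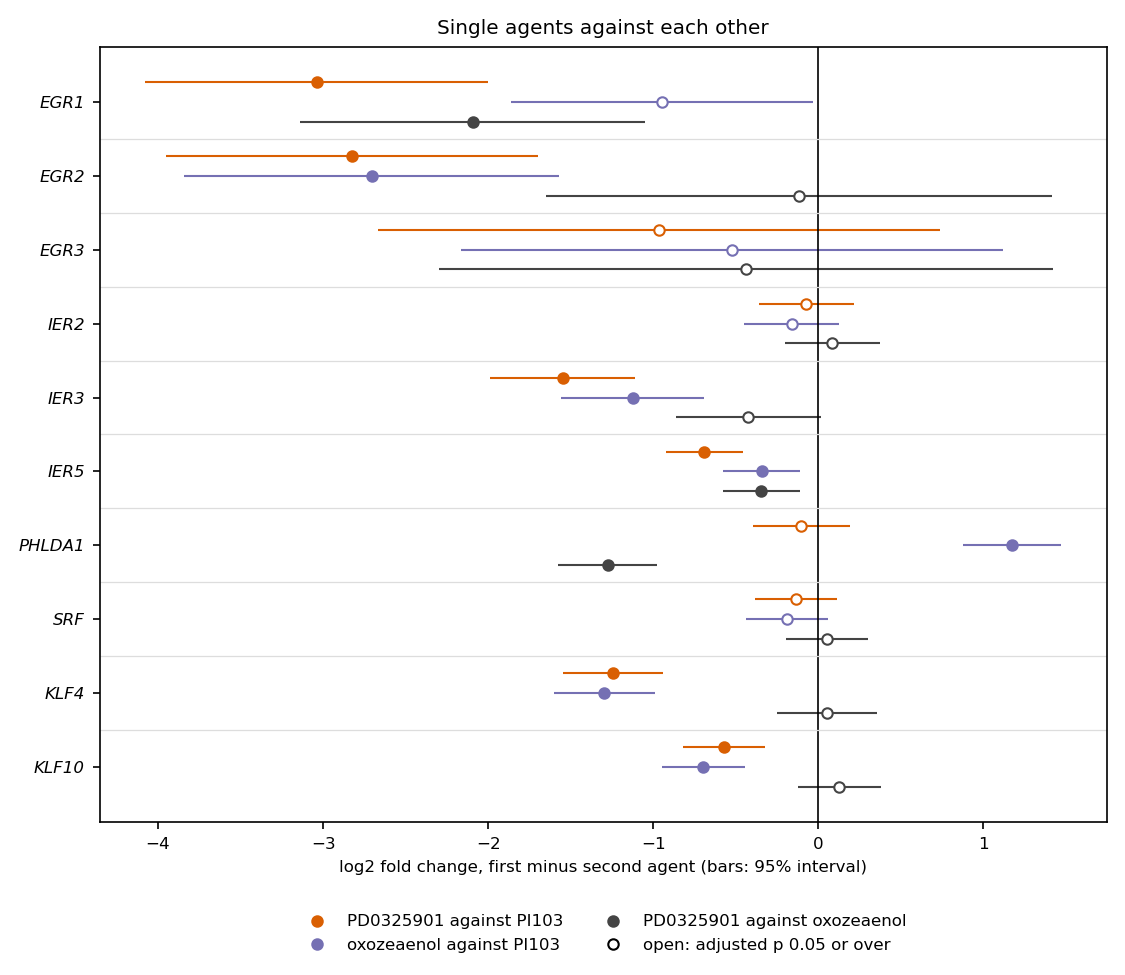
Log2 fold change of each gene between the single agents, first minus second, with 95% intervals over 4 libraries a group and open symbols for an adjusted p of 0.05 or over. PHLDA1 is the gene on the right of 0 in oxozeaenol against PI103, at 1.17, and EGR1 lies farthest left in PD0325901 against PI103, at -3.04.

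The combinations, with each agent at 50% of its concentration, were set against the single agents at full concentration. PI103 plus PD0325901 was lower than PI103 in 7 genes, all but EGR3, IER2 and KLF10, while 38.7% of all genes differed. Against PD0325901 it was lower in 1 gene, PHLDA1, while 18.1% of all genes differed. PHLDA1 was 2.14-fold lower than with PD0325901 (log2 fold change -1.09, SE 0.15, adjusted p = 1.61e-05) and 2.29-fold lower than with PI103 (-1.20, SE 0.15, adjusted p = 6.70e-07), in 4 of 4 batches each. EGR1 differed from PD0325901 by -0.03 (95% interval -1.17 to 1.11), IER3 by 0.17 (-0.27 to 0.61) and IER5 by 0.03 (-0.20 to 0.27), none of which passed. With batch as a term 3 genes passed against PD0325901, as SRF (log2 fold change -0.29, adjusted p = 0.0357) and KLF10 (0.30, adjusted p = 0.026) were added. KLF10 against PI103 did not pass (log2 fold change -0.27, adjusted p = 0.0755), but did with batch as a term (0.0286) or without replicate 4 of PI103 (0.0247).

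PI103 plus oxozeaenol was lower than PI103 in 3 genes (EGR2, IER3 and KLF4), while 18.3% of all genes differed. The EGR2 call rests on 14 counts in all with the combination and 74 with PI103, and the ranges overlapped. IER3 was 1.98-fold lower (log2 fold change -0.99, SE 0.21, adjusted p = 0.00147) and KLF4 1.79-fold lower (-0.84, SE 0.15, adjusted p = 0.00017). KLF10 did not pass (log2 fold change -0.30, adjusted p = 0.0835), but did with batch as a term (0.0272) or without replicate 4 of PI103 (0.0314). Against oxozeaenol it was lower in PHLDA1 and higher in KLF4 and KLF10, 3 genes, while 14.9% of all genes differed. PHLDA1 was 1.97-fold lower (log2 fold change -0.98, SE 0.14, adjusted p = 6.76e-05). KLF4 was 1.37-fold higher (0.45, SE 0.15, adjusted p = 0.0366) and KLF10 1.31-fold higher (0.39, SE 0.12, adjusted p = 0.0292), in 4 of 4 batches each with overlapping ranges. These 2 calls were lost without replicate 1 or 3 of the combination or replicate 3 or 4 of oxozeaenol, where adjusted p ran up to 0.119 for KLF4 and 0.105 for KLF10, and that of KLF4 also without replicate 2 of the combination (0.0669).

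A last comparison set each combination against the mean of its single agents on the log2 scale, which is where 2 agents at 50% would stand if the log2 level moved evenly between them. PI103 plus PD0325901 lay below that mean in 7 genes (EGR1, EGR2, IER3, IER5, PHLDA1, SRF and KLF4), while 22.0% of all genes differed from it. PHLDA1 was 2.21-fold below (log2 difference -1.15, SE 0.13, adjusted p = 1.22e-06), and leaving out any library kept it between -1.29 and -1.08. EGR1 was 2.93-fold below (-1.55, SE 0.46, adjusted p = 0.0217), and IER3, IER5, SRF and KLF4 had log2 differences of -0.60 to -0.31. Leaving out 1 library at a time, the call of KLF4 was lost in 7 of 12 fits (adjusted p up to 0.179), that of IER5 in 3 (up to 0.174) and those of EGR1, IER3 and SRF in 2 each. Without replicate 2 or without replicate 4 of the combination 2 genes passed, PHLDA1 and EGR2, with EGR1 at an adjusted p of 0.102 and 0.0531. The EGR2 value rests on 3 counts in all with the combination and 10 with PD0325901, and EGR2 did not pass against PD0325901 alone (adjusted p = 0.220). Of the 7 genes only PHLDA1 was also lower than with PD0325901 alone. KLF10 stood at the mean, with a log2 difference of 0.01 (95% interval -0.20 to 0.23).

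PI103 plus oxozeaenol departed from its mean in 0 of the 10 genes in edgeR's quasi-likelihood test, while 3.98% of all genes did. At an unadjusted p under 0.05 there were 2, PHLDA1 and IER3, and DESeq2 called 1, PHLDA1. PHLDA1 had a log2 difference of -0.39 (SE 0.13, adjusted p = 0.0825), which passed with batch as a term (0.0278) and without replicate 2 of the combination (-0.55, adjusted p = 0.0119), the library at 52.7 CPM, or without replicate 4 of oxozeaenol (-0.44, adjusted p = 0.0338). IER3 had a log2 difference of -0.42 (SE 0.18, adjusted p = 0.243), which passed without replicate 4 of oxozeaenol (-0.54, adjusted p = 0.0221).

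**Figure D5:**
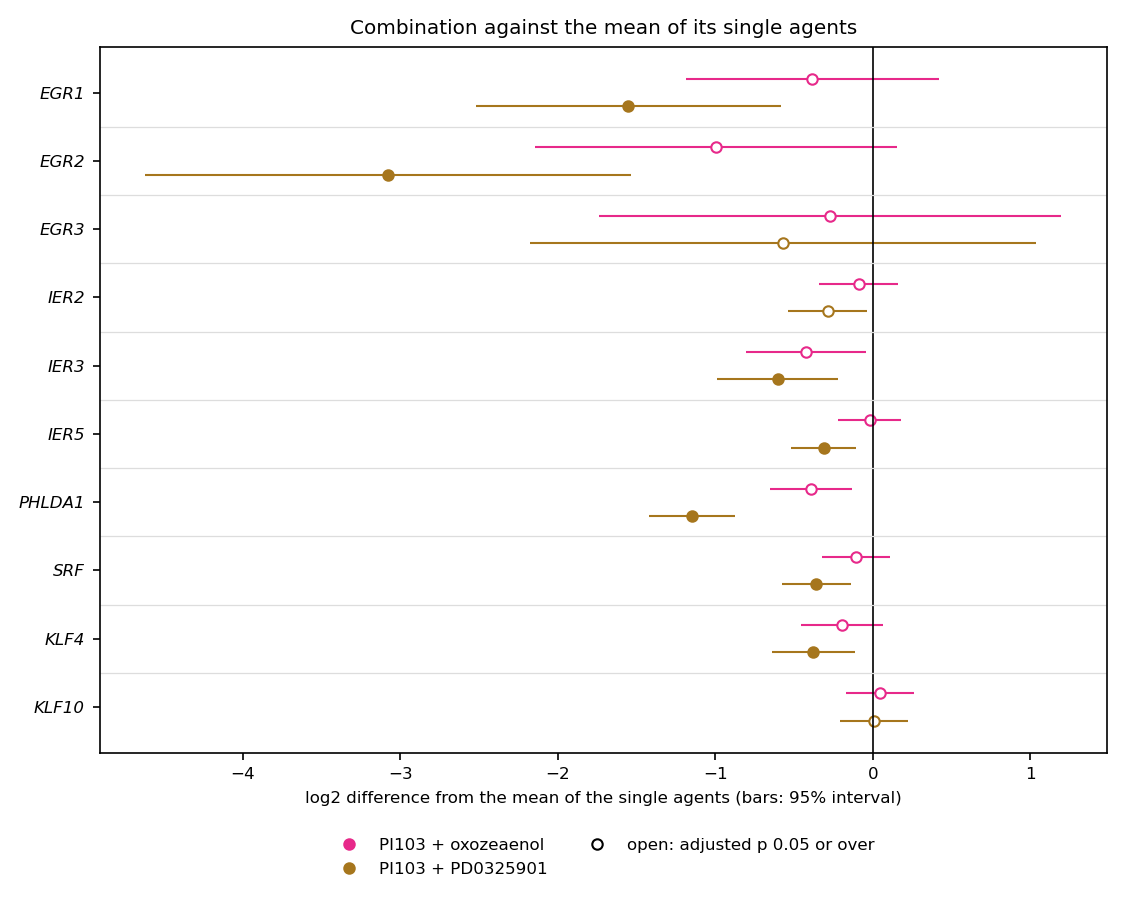
Log2 difference of each combination from the mean of its single agents, with 95% intervals over 4 libraries a group and open symbols for an adjusted p of 0.05 or over. PHLDA1 in PI103 plus PD0325901, at -1.15, has the narrowest interval among the genes below -1, and all symbols of PI103 plus oxozeaenol are open.

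Genes around the set were counted from lists of the same pathways, with counts in the order PI103, PD0325901, oxozeaenol, PI103 plus oxozeaenol and PI103 plus PD0325901. Of all 13947 genes tested, 3508, 4172, 3642, 3889 and 4553 fell in that order. Those that rose numbered 3654, 4004, 3590, 3868 and 4486. Of 19 other ERK output genes, 9, 16, 17, 13 and 16 fell and 2, 0, 0, 0 and 2 rose, and the median log2 fold change was -0.81, -1.71, -0.97, -0.83 and -1.65. ETV4, an ETS factor under ERK control, had log2 fold changes of 0.24 (adjusted p = 0.562), -5.92, -2.40, -1.23 and -6.23, and passed in all but PI103. DUSP6, the phosphatase that switches ERK off, fell in all 5, with log2 fold changes of -1.43, -5.18, -2.54, -1.91 and -5.08. HBEGF, an EGF receptor ligand, fell in all 5, at -3.09 with PI103 and -2.40 with PD0325901. FOSL1, an AP-1 factor, had values of -1.68, -4.10, -2.57, -2.25 and -4.06, all of which passed.

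Of 25 other immediate-early genes, 17, 20, 21, 20 and 19 fell and 3, 2, 1, 2 and 3 rose, with medians of -0.58, -1.12, -1.48, -1.12 and -1.19. FOSB, a further AP-1 factor, fell by 2.13 with PI103 and by the most with oxozeaenol (-3.93). DUSP1, a phosphatase of p38 and JNK, fell in all treatments, with log2 fold changes of -3.04 to -2.60. Of 5 SRF cofactors, 0, 2, 1, 1 and 1 fell and 2, 0, 0, 0 and 1 rose, and with batch as a term the number that changed was 4 rather than 2 with PI103, 2 rather than 1 with oxozeaenol and 4 rather than 2 with PI103 plus PD0325901. The MRTF gene MKL1 fell with PD0325901 (-0.71), oxozeaenol (-1.11), PI103 plus oxozeaenol (-0.57) and PI103 plus PD0325901 (-0.31). With PI103 it stood at 0.24 (adjusted p = 0.0701), which passed with batch as a term (0.0275). The ternary complex factor ELK3 rose by 0.78 with PI103 (adjusted p = 0.000163). Of 13 SRF targets usually assigned to MRTF, 7 rose and 2 fell with PI103 (median 0.33), and 3 rose and 6 fell with PD0325901 (median -0.10). ACTA2, smooth muscle actin, rose by 0.83 to 1.01 in all treatments, and FHL2, a LIM domain cofactor, fell in all, at -1.21 to -0.70.

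Of 6 EGR corepressors and targets, 2, 2, 2, 1 and 2 fell and 2, 2, 1, 1 and 2 rose, with medians of 0.22, 0.03, -0.16, 0.03 and -0.01. With so few genes, these counts were not far from the shares of all genes that fell and rose. NAB2, a corepressor that EGR factors induce, fell in every treatment, with log2 fold changes of -0.55, -0.99, -0.98, -0.72 and -0.73. Tissue factor, F3, fell by 0.91 with PI103 and rose by 0.44 with PD0325901 and 0.75 with oxozeaenol, and in the combinations it was at -0.03 with PI103 plus oxozeaenol (adjusted p = 0.776) and fell by 0.35 with PI103 plus PD0325901. Of 7 TGFβ response genes, 2, 6, 6, 4 and 4 fell and 1, 0, 0, 0 and 0 rose, with medians of -0.07, -0.74, -1.57, -0.46 and -0.40, and SKIL, a repressor in that pathway, fell by 1.73 with oxozeaenol and less with PI103 (-0.46). Of 11 NF-κB targets, 7, 5, 7, 7 and 4 fell and 3, 3, 1, 3 and 4 rose, with the chemokine IL8 at -6.47 to -5.06 and CXCL1 at -1.72 to -0.84 over the treatments. Of 9 other KLF genes, 4, 4, 5, 5 and 5 fell and 2, 2, 1, 2 and 3 rose, with medians of -0.19, -0.10, -0.30, -0.89 and -0.54. KLF5 was at -1.39 to -0.89 and KLF9 at -1.84 to -0.73, while KLF12, chosen after its values were seen, rose in every treatment, at 0.46 to 0.91. The medians of all genes in these comparisons lay between -0.02 and 0.02.

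Genes outside the set whose log2 CPM ran closest to those of EGR1, IER3 and PHLDA1 were ranked over 10032 genes and 24 libraries, which share the groups, batches and library scaling, so these values only describe likeness. ERRFI1, a feedback inhibitor of EGF receptor signalling, was closest to EGR1 (Pearson r = 0.975) and to IER3 (0.989). ERRFI1 stood at 1676 ± 260 CPM (SD, n = 4) in control, 258 ± 30.1 with PI103, 93.1 ± 23.0 with PD0325901 and 74.8 ± 14.0 with PI103 plus PD0325901. SH2D3A and FOSL1 followed for EGR1 (0.971 each), and LYPD1 (0.986) and H1F0 (0.977) for IER3. PHLDA1 was closest to INPP1, an inositol phosphatase (0.975), the clock gene CRY1 (0.964) and the thioredoxin reductase gene TXNRD1 (0.962). TXNRD1 repeated the order of PHLDA1, at 357 ± 21.5 CPM in control, 211 ± 14.9 with oxozeaenol, 159 ± 18.1 with PI103, 144 ± 12.1 with PD0325901 and 124 ± 5.31 with PI103 plus PD0325901. Within the set, IER3 ran closest to KLF4 (0.974) and IER5 was least like EGR1 (0.540), IER3 (0.366) and PHLDA1 (0.267).

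Libraries of a group moved together across the set in places. In oxozeaenol batches 1 and 2 were above batches 3 and 4 for 7 of the 10 genes, a pattern shown by 18.1% of all genes, and in PI103 for 6 of 10, against 16.7%. The same held for 0 of 10 in control (7.39% of all genes), 3 in PD0325901 (21.6%), 4 in PI103 plus oxozeaenol (17.2%) and 1 in PI103 plus PD0325901 (22.2%). In control replicate 4 was highest for 7 genes (26.4% of all genes) and replicate 3 lowest for 7 (30.3%). PI103 plus PD0325901 replicate 1 was highest for 7 genes of its group (31.5%). The genes are not independent of each other, and the part of the batches in the differences beyond the fits with batch as a term was not tested.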

How the data were processed

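Messenger RNA of 24 libraries was made with a stranded kit, per the labels' protocols. The authors deposited raw read counts by gene symbol; GRCh38 is named in the submitters' processing notes, and the aligner, counter and annotation are not given in the sources used here. The 5 tally rows of unassigned reads (no feature 4.24% to 8.57%) were left out. Groups came from the sample titles. The labels call the replicates biological without saying that the cultures were separate, so p-values measure the spread between these libraries.

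Genes were filtered with filterByExpr, which kept 13947, and 3199 had no count. After TMM scaling, edgeR 4.0.16 (R 4.3.3) fitted all groups in 1 robust quasi-likelihood model, and 17 contrasts were tested two-sided. SE is the absolute log2 fold change over the square root of F. log2 CPM used a prior count of 2. The common biological coefficient of variation was 13.1%. Depth was 38057638 to 84226380 counts per library. Low counts limit precision mainly for EGR2 and EGR3, and EGR1 had the largest biological coefficient of variation of the set (45.0%). Counting intervals cover counting error only.

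Alternatives were batch as a block, RLE size factors, DESeq2 1.42.0, no filter, fits of only the groups compared, and leaving out each library. Replicate numbers are batches per the labels, so the number pairs the samples: deviations from group means had a mean correlation of 0.120 over 60 pairs with the same number (28 over 0.1) and -0.04 over 180 pairs with different numbers. The members and the gene lists were chosen with earlier results of these data known. All members are named. From each list the genes of largest mean absolute log2 fold change against control are named, except 1 that is not reported here, and for likeness the 3 genes with the highest r for EGR1, IER3 and PHLDA1. Gene positions are from GENCODE 29, and promoter letters from RefSeq. The fitting script was tested on simulated data.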

Additional observations from a re-analysis of the deposited data

Results flagged for a closer look

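Libraries were examined for values far from the rest of their group in 60 sets of 4 libraries by Dixon's test at its 95% critical value for 4 samples, by which chance marks about 1 group in 20. There were 5. EGR2 in PI103 plus oxozeaenol replicate 4 stood at 0.170 CPM, against 0.0178 to 0.0334 CPM in the other 3 libraries. EGR3 in PI103 replicate 4 stood at 0.178 CPM against 0.0171 to 0.0347 CPM, and EGR3 in oxozeaenol replicate 4 at 0.106 CPM against 0.0174 to 0.0284 CPM. These 3 values rest on 9, 11 and 6 counts, and all came from batch 4, which also held the highest EGR3 level in control. IER5 in control replicate 1 stood at 60.4 CPM against 50.9 to 52.2 CPM. PHLDA1 in PI103 plus oxozeaenol replicate 2 stood at 52.7 CPM against 34.3 to 37.4 CPM, and without that library PHLDA1 passed against the mean of the single agents (log2 difference -0.55, adjusted p = 0.0119).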

How the results depend on the processing

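Against control, every gene but IER5 kept its direction and call in all 65 fits (5 alternatives and 8 fits without a library, in 5 treatments); IER5 kept them in 58, lost its call in 5 and turned in 2. The fit with batch as a replicate block (the pairing by batch) gave 3 genes called rather than 1 in PI103 plus PD0325901 against PD0325901, 1 rather than 0 in PI103 plus oxozeaenol against the mean of its agents (as did DESeq2, 1), 3 rather than 1 differing neighbours in the order of KLF10, and 4, 2 and 4 SRF cofactors called with PI103, oxozeaenol and PI103 plus PD0325901. In PI103 plus oxozeaenol against oxozeaenol it turned the sign of log2 fold changes that did not pass in either fit. These were EGR3 (0.088, main fit -0.0079) and SRF (0.0023, main fit -0.0094). The fit with batch as a block ended no call. RLE factors called 1 rather than 2 EGR corepressors and targets with PI103 plus oxozeaenol. In PI103 plus oxozeaenol against PI103, fitting only these groups called 6 genes rather than 3, and 2 rather than 1 passed at a log2 change of at least 1 without the filter. Without the filter the calls of KLF4 (PI103 plus oxozeaenol against oxozeaenol) and of IER3 and KLF4 (PI103 plus PD0325901 against its mean) were lost, and fitting only the groups compared lost KLF4, IER5 (PD0325901 against oxozeaenol) and IER5 (PI103 plus PD0325901 against its mean). The cause was not tested. Leaving out 1 library at a time gave 2 to 7 genes (main 7) in PI103 plus PD0325901 against its mean, 1 to 3 (3) in PI103 plus oxozeaenol against oxozeaenol, 1 to 2 (1) in PI103 plus PD0325901 against PD0325901 and 0 to 2 (0) in PI103 plus oxozeaenol against its mean; at a log2 change of at least 1 it gave 1 to 2 (1) and 0 to 1 (0) in PI103 plus oxozeaenol against PI103 and against oxozeaenol. Differences that did not pass turned sign without some library, with log2 ranges in oxozeaenol against control (IER5 -0.080 to 0.026), PI103 plus oxozeaenol against PI103 (EGR3 -0.83 to 0.66), PI103 plus oxozeaenol against oxozeaenol (EGR1 -0.22 to 0.45, EGR2 -0.75 to 0.74, EGR3 -0.28 to 0.84, IER2 -0.15 to 0.076, IER3 -0.089 to 0.31, SRF -0.099 to 0.11), PI103 plus PD0325901 against PI103 (EGR3 -1.83 to 0.14), PI103 plus PD0325901 against PD0325901 (EGR1 -0.29 to 0.24, EGR3 -0.87 to 0.43, IER5 -0.074 to 0.15), PD0325901 against PI103 (EGR3 -1.48 to 0.23), oxozeaenol against PI103 (EGR3 -1.37 to 0.67), PD0325901 against oxozeaenol (EGR2 -0.49 to 0.27, EGR3 -0.95 to 0.41, IER2 -0.059 to 0.17, SRF -0.036 to 0.17, KLF4 -0.094 to 0.16), PI103 plus oxozeaenol against the mean of its single agents (EGR3 -0.42 to 0.33, IER5 -0.080 to 0.027, KLF10 -0.0072 to 0.10), PI103 plus PD0325901 against the mean of its single agents (EGR3 -1.35 to 0.028, KLF10 -0.032 to 0.062). EGR2 and EGR3 are limited by depth outside control.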
